A study of Mus musculus with 2 samples.

Results

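Genes of the bone morphogenetic protein (BMP) and transforming growth factor beta (TGF-beta) pathways were described in the midbrain of 2 mouse embryos. The members were 39 genes named by symbol: 11 ligands, 10 receptors, 8 Smads, 4 Id genes and 6 antagonists. All 39 had a row among the 43346 rows with an Ensembl identifier in the gene tables. Total RNA came from B6NCrl mice at 14.5 days of embryonic development, with 1 library per embryo, and the labels name no treatment or genetic change. They describe each library as the midbrain of 1 pup, give different collection days and number the libraries as biological replicates 1 and 2, so they are called embryo 1 and embryo 2 here. A single group allows no test, so differences between the embryos are given as values with counting intervals.

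BMP and TGF-beta ligands are secreted dimers that bring together type I and type II receptor kinases on the cell surface. The activated type I receptor phosphorylates receptor-regulated Smads, which join Smad4 and enter the nucleus, with Smad1, Smad5 and Smad9 acting mainly downstream of BMP receptors and Smad2 and Smad3 downstream of TGF-beta and activin receptors. Id genes are classic BMP targets, and in the embryonic brain these pathways take part in dorsal patterning, the upkeep of progenitors and vessel growth.

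The tables sum to 32716141 counts for embryo 1 and 30185472 for embryo 2. The 39 members together took 0.158% of the gene counts in embryo 1 and 0.137% in embryo 2. All levels are in TPM, a share of all transcripts that is corrected for transcript length and can be compared between genes. The 8 midbrain markers, among them Otx2, En1 and En2, summed to a TPM of 373 in embryo 1 and 283 in embryo 2. Otx2 had 99.9 in embryo 1 and 76.3 in embryo 2, En1 had 13.5 in embryo 1 and 14.3 in embryo 2. En2 had 3.07 in embryo 1 and 2.96 in embryo 2. By the scaled counts used for ratios below, 4 of the 8 were higher in embryo 1 and 4 lower. Both samples are labelled as of pooled sex. However, the level of Xist was 0.01 in embryo 1 against 62.0 in embryo 2. That of the Y-linked Eif2s3y was 73.0 in embryo 1 against 0 in embryo 2. By these genes embryo 1 reads as male and embryo 2 as female, unlike the label.

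Promoter windows are shown for 5 members that recur in the results: Id2 and Id4, the members with the highest level, and Bmp5, Tgfbr2 and Smad6, which were each at least 2-fold higher in embryo 1. Each window holds the 250 bases before the RefSeq start on GRCm38.p6, the assembly also called mm10, read 5′ to 3′ on the strand of the gene. The windows lie at chr9:75775115-75775364 (plus strand) for Bmp5, chr9:116175364-116175613 (minus) for Tgfbr2, chr9:64022060-64022309 (minus) for Smad6, chr12:25096093-25096342 (minus) for Id2 and chr13:48260866-48261115 (plus) for Id4. Capitals mark matches, on either strand, to the short Smad-binding sequence CAGAC, which reads as GTCTG when it lies on the other strand, or to the GC-rich sequence GGCGCC.
Bmp5: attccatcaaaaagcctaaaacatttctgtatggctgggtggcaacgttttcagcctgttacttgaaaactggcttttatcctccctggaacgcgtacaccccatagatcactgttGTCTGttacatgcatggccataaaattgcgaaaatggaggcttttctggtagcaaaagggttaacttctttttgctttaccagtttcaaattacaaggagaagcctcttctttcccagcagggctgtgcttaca
Tgfbr2: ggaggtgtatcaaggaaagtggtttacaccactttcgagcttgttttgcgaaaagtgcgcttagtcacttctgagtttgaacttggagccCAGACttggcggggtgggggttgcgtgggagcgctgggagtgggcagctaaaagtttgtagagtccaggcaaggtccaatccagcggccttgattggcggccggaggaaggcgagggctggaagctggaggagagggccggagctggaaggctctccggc
Smad6: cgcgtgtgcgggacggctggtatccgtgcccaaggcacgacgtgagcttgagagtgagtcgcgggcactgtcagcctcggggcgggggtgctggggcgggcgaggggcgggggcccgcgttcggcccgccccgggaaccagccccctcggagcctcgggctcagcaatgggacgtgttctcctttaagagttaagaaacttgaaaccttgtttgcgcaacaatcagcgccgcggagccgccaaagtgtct
Id2: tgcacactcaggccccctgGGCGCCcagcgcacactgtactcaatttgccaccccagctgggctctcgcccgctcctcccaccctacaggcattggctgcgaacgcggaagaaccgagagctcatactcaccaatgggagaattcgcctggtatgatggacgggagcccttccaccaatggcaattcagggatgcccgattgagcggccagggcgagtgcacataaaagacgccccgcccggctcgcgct
Id4: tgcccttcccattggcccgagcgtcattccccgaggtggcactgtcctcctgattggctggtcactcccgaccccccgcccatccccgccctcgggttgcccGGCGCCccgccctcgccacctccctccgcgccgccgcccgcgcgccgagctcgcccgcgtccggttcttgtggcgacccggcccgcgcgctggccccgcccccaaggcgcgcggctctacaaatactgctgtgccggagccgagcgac
Bmp5 and Tgfbr2 each had 1 match to CAGAC, Id2 and Id4 each had 1 match to GGCGCC, and the Smad6 window had neither. The Id2 window lies within the annotated span of the gene, next to the start of its leading transcript. RefSeq windows were matched for 26 of the 39 members. Some RefSeq starts lay far from the start of the transcript with the highest TPM in embryo 1. The distance was 55933 bases for Tgfb2, 50556 for Acvr1, 879 for Bmpr2 and 609 for Bmp6, and these windows were kept. CAGAC was present in 10 of these 26 (38.5%), against 42.2% of all 32851 windows of the same length. GGCGCC was present in 8 of the 26 (30.8%), against 9.59% of all windows. The median GC content was 70.6% for the windows of the members and 52.4% for all windows, and the share with GGCGCC was not adjusted for it. The palindrome GTCTAGAC, which does not overlap CAGAC, was in 0 of the 26 and in 0.167% of all windows. The sequence TATAAA was in 3 of the 26 (11.5%) and in 12.4% of all windows. A match is a run of letters and not a measured binding site.

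As a group the members sat at a middle level with a wide range. Taking a TPM of 1 or more in each embryo as detection, 33 of the 39 members (84.6%) were detected, against 59.5% of 21474 protein-coding genes. The median TPM of the members was 5.20 (6.22 in embryo 1 and 4.06 in embryo 2), against 4.67 for all protein-coding genes. The 4 Id genes had a summed TPM of 506 ± 4.44 (SD, n = 2), out of 924.5 ± 84.5 (SD, n = 2) for all 39 members. Receptors and Smads followed with medians of 15.9 and 12.6, and the medians were lowest for antagonists, at 3.18, and ligands, at 1.70. All 10 receptors, all 4 Id genes and all 6 antagonists were detected, as were 6 of the 8 Smads and 7 of the 11 ligands.

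**Figure D1:**
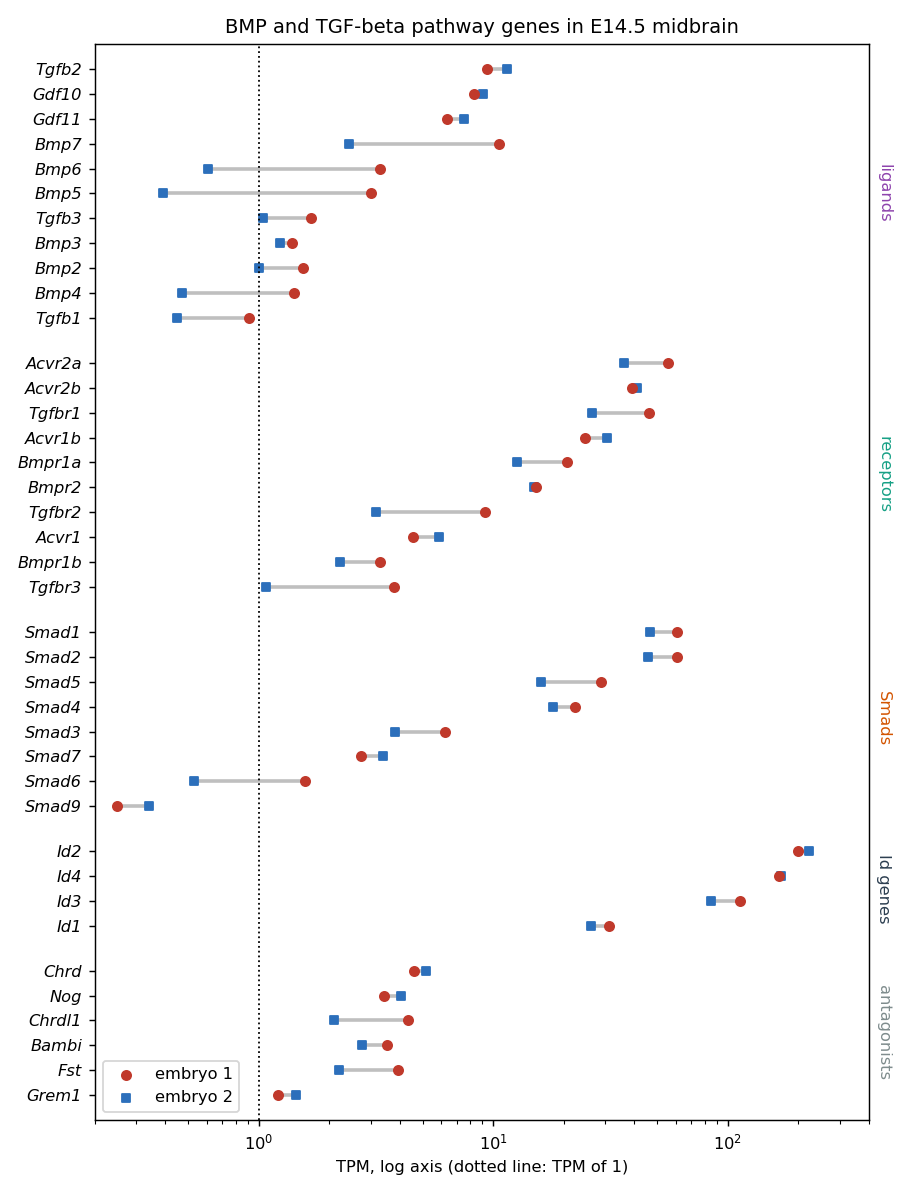
Level of each of the 39 members by role, as TPM on a log axis, with 1 point per embryo. The Id genes lie highest, Smad9 lies lowest with 0.25 in embryo 1 and 0.34 in embryo 2, a dotted line marks a TPM of 1, and the points of Bmp5, Bmp6 and Bmp7 lie far apart between the embryos.

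Ratios between the embryos are embryo 1 over embryo 2, from expected counts scaled for library composition. They carry a 95% interval for counting error only, which holds nothing of the variation between animals. A member was called where the ratio was at least 2-fold in either direction with at least 100 counts summed over both libraries. By this rule 6 of the 36 members with enough counts (16.7%) were called, against 4.79% of 14011 genes. All 6 were higher in embryo 1, the direction of 3.35% of the genes: the ligands Bmp5, Bmp6 and Bmp7, the receptors Tgfbr2 and Tgfbr3, and the inhibitory Smad6. In embryo 2, 0 members were called higher, against 1.43% of the genes. In bulk tissue, fewer cells of a type and less RNA per cell cannot be told apart. Neither can the embryo, its collection day and the sex read from Xist and Eif2s3y. The called members were closest to the threshold in Tgfbr2 at 2.64-fold, and below it the nearest member with 100 counts was the antagonist Chrdl1 at 1.85-fold.

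Over all 39 members the median ratio was 1.18-fold, with 25 members above 1 and 14 below, and 49.5% of 18874 genes were above 1. The median ratio was 1.45-fold for ligands, 1.33-fold for receptors, 1.17-fold for Smads, 0.981-fold for Id genes and 0.959-fold for antagonists. The sign of the last 2 medians changed with the scaling of the libraries: the median log2 ratio was -0.03 for the Id genes and -0.06 for the antagonists with the scaling used here, and 0.11 and 0.09 from the deposited TPM.

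**Figure D2:**
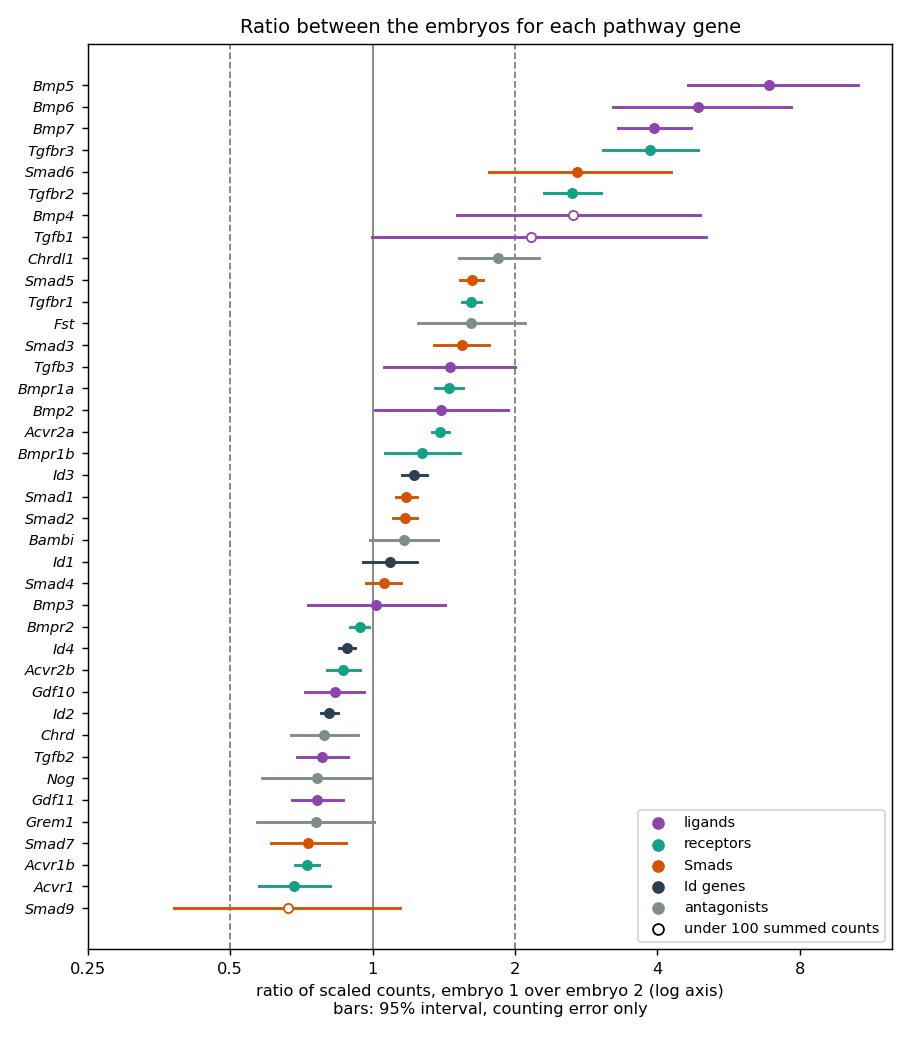
Ratio of embryo 1 over embryo 2 for each of the 39 members on a log axis, with bars for the 95% counting interval, lines at 1 and at 2-fold in each direction, and open points for the 3 members under 100 counts. Bmp5, Bmp6, Bmp7 and Tgfbr3 lie furthest to the side of embryo 1, and no member with 100 counts passes 2-fold on the side of embryo 2.

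Among the ligands, TGF-beta2 and 2 growth and differentiation factors had the highest levels in the mean, and the BMP ligands were the most unequal between the embryos. Tgfb2, which encodes TGF-beta2, had a TPM of 9.41 in embryo 1 and 11.4 in embryo 2. Gdf10, also called BMP3b and close to Bmp3 in sequence, had 8.30 in embryo 1 and 9.04 in embryo 2. Gdf11, a relative of myostatin that signals through activin receptors, had 6.34 in embryo 1 and 7.50 in embryo 2. All 3 were somewhat lower in embryo 1, and their levels did not overlap with the next in the order Tgfb2, Gdf10, Gdf11. The ratio of Tgfb2 was 0.783 (0.691 to 0.888), and under the 5 scalings tried it kept its side of 1. Tgfb3, which encodes TGF-beta3, had a TPM of 1.68 in embryo 1 and 1.04 in embryo 2. Tgfb1, which encodes TGF-beta1, rested on 24 counts in embryo 1 and 10 in embryo 2 and had a TPM of 0.91 in embryo 1 and 0.45 in embryo 2. Tgfb2 thus held 78.4% of the TPM of the TGF-beta ligands in embryo 1 and 88.5% in embryo 2.

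The 6 genes with the Bmp symbol all had ratios above 1 under each of the 5 scalings, although the interval of Bmp3, at 1.02-fold (0.730 to 1.42), held 1, and the related Gdf10 had a ratio of 0.831 (0.721 to 0.957). Bmp7 (chromosome 2, 172868012 to 172940321, minus strand), a ligand of the 60A group with broad roles in organ growth, had a TPM of 10.6 in embryo 1 and 2.43 in embryo 2. It was the highest ligand in embryo 1, above Tgfb2, whereas in embryo 2 it lay below Tgfb2, Gdf10 and Gdf11. Its ratio was 3.94-fold (3.31 to 4.71). Bmp6 (chromosome 13, 38345107 to 38500302, plus strand), known for its control of hepcidin in liver, had 3.30 in embryo 1, on 146 counts, and 0.61 in embryo 2, on 27. Bmp5 (chromosome 9, 75775364 to 75900310, plus strand), the gene of the mouse short ear mutation, had 3.0 in embryo 1, on 214 counts, and 0.39 in embryo 2, on 28. Both were clearly higher in embryo 1, at 4.88-fold (3.22 to 7.66) for Bmp6 and 6.89-fold (4.64 to 10.6) for Bmp5. Of the 14011 genes, 0.56% had a higher ratio than Bmp5, 0.73% than Bmp6 and 0.89% than Bmp7. The 3 genes of the 60A group summed to a TPM of 16.9 in embryo 1 and 3.43 in embryo 2.

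The other BMP ligands were low in both embryos. Bmp4, a dorsalising ligand of the neural tube, had a TPM of 1.42 in embryo 1, on 50 counts, and 0.47 in embryo 2, on 17, too few for a call. Its ratio was 2.65-fold (1.51 to 4.91), with an interval that reached well below 2-fold. Bmp2, its close relative, had 1.54 in embryo 1 and 1.00 in embryo 2. Bmp3, an atypical ligand that antagonises other BMPs, had 1.39 in embryo 1 and 1.23 in embryo 2. From Bmp7 downwards each ligand overlapped with its neighbour in the order of levels.

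The highest receptor levels were those of Acvr2a and Acvr2b, type II receptors that bind activins and also serve BMPs, and of the type I receptors Tgfbr1 and Acvr1b. Acvr2a had a TPM of 55.8 in embryo 1 and 36.0 in embryo 2. Acvr2b had 39.2 in embryo 1 and 40.9 in embryo 2. Tgfbr1, the type I receptor for TGF-beta (ALK5), had 46.0 in embryo 1 and 26.4 in embryo 2. Acvr1b, the type I receptor for activin (ALK4), had 24.5 in embryo 1 and 30.5 in embryo 2. Acvr2a and Acvr2b both lay above Acvr1b in each embryo, whereas Acvr2a, Acvr2b and Tgfbr1 overlapped with one another and Tgfbr1 overlapped with Acvr1b. The ratio was 1.39-fold (1.34 to 1.45) for Acvr2a and 1.62-fold (1.54 to 1.70) for Tgfbr1, both below the threshold.

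Bmpr1a and Bmpr2, which bind BMPs, were the next in level. Bmpr1a, a type I receptor (ALK3), had a TPM of 20.7 in embryo 1 and 12.7 in embryo 2. Bmpr2, a type II receptor, had 15.3 in embryo 1 and 14.9 in embryo 2, and it was the 1 member whose ratio changed side with the scaling. Bmpr1a and Bmpr2 overlapped with each other but lay below Acvr1b and above the rest. Acvr1, a type I receptor for BMPs (ALK2), had 4.54 in embryo 1 and 5.86 in embryo 2, and Bmpr1b, a type I receptor (ALK6), had 3.30 in embryo 1 and 2.23 in embryo 2.

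The 2 called receptors both bind TGF-beta directly. Tgfbr2 (chromosome 9, 116084293 to 116175360, minus strand), the type II receptor for TGF-beta, had a TPM of 9.22 in embryo 1 and 3.16 in embryo 2. Its ratio was 2.64-fold (2.30 to 3.03). The Tgfbr2 window, printed above, was 1 of the 10 with CAGAC, which was in 38.5% of member windows and 42.2% of all windows. Tgfbr3 (chromosome 5, 107106570 to 107289629, minus strand), betaglycan, a co-receptor that presents ligand, had 3.76 in embryo 1 and 1.07 in embryo 2. Its ratio was 3.85-fold (3.07 to 4.87). In embryo 1 the partners Tgfbr1 and Tgfbr2 were thus both higher, though Tgfbr1 by less than the 2-fold of the rule.

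The mix of receptors also differed between the libraries. Of the summed TPM of the 5 type I receptors, Tgfbr1 held 46.5% in embryo 1 and 34.0% in embryo 2, and Acvr1b held 24.8% in embryo 1 and 39.3% in embryo 2. Tgfbr1 was therefore the first type I receptor in embryo 1 and Acvr1b in embryo 2. Of the summed TPM of the 4 type II receptors, Acvr2a held 46.7% in embryo 1 and 37.9% in embryo 2, and Acvr2b held 32.8% in embryo 1 and 43.1% in embryo 2. These shares come from 1 library per embryo, and no replicate spread stands behind each.

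**Figure D3:**
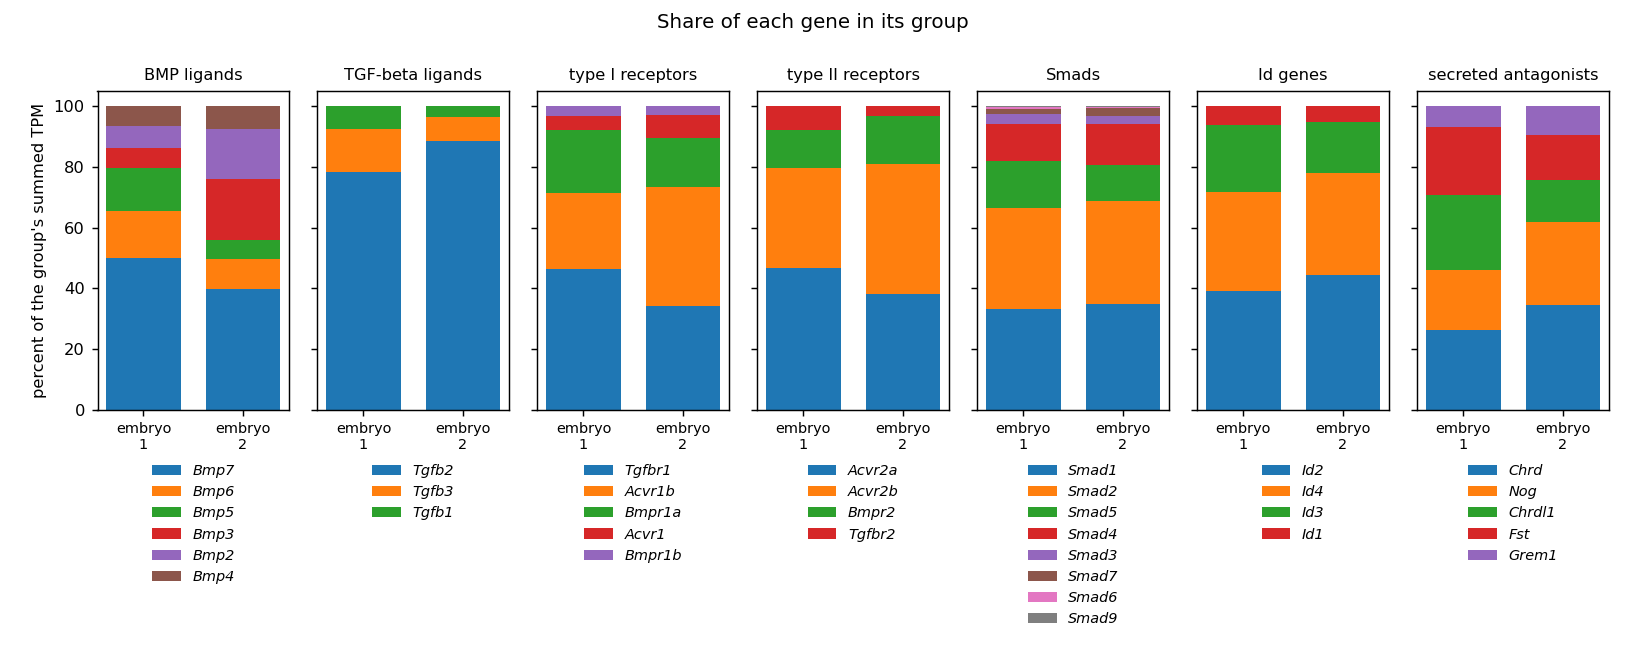
Share of the summed TPM of each group of members held by each gene, in percent, as stacked bars with embryo 1 left of embryo 2. Tgfb2 holds most of the TGF-beta ligands, with 78.4% in embryo 1 and 88.5% in embryo 2, and the leading type I receptor is Tgfbr1 in embryo 1 and Acvr1b in embryo 2.

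Of the Smads, 1 effector of each branch stood at the top with near-equal levels. Smad1, an effector of BMP receptors, had a TPM of 60.9 in embryo 1 and 46.7 in embryo 2. Smad2, an effector of TGF-beta and activin receptors, had 60.9 in embryo 1 and 45.9 in embryo 2. Smad1 held 33.2% of the summed Smad TPM in embryo 1 and 34.7% in embryo 2, and Smad2 held 33.2% in embryo 1 and 34.1% in embryo 2, so their shares moved little while both levels were higher in embryo 1. The ratio of Smad1 was 1.18-fold (1.12 to 1.24), a small difference on deep counts. Smad5, close to Smad1 in function, had 28.8 in embryo 1 and 15.9 in embryo 2, at 1.62-fold (1.53 to 1.71). Smad4, the shared partner of both branches, had 22.3 in embryo 1 and 17.9 in embryo 2. Smad3 had 6.22 in embryo 1 and 3.81 in embryo 2, far below Smad2 in both embryos. Smad9, the remaining BMP effector, was not detected by the TPM rule, with 0.25 in embryo 1, on 25 counts, and 0.34 in embryo 2, on 34.

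The inhibitory Smads, which BMP and TGF-beta signals induce as feedback, were low and moved apart. Smad6 (chromosome 9, 63953076 to 64022059, minus strand), which mainly blocks BMP signalling, had a TPM of 1.58 in embryo 1 and 0.53 in embryo 2. It was called at 2.71-fold (1.76 to 4.28), on 87 counts in embryo 1 and 29 in embryo 2. Smad7, which blocks both branches, had 2.74 in embryo 1 and 3.38 in embryo 2, with a ratio of 0.732 (0.610 to 0.878). Smad7 lay above Smad6 in each embryo, and Smad6 above Smad9.

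The Id genes encode helix-loop-helix proteins without a DNA-binding region, which hold E proteins away from DNA and so delay differentiation. Their order was the same in both embryos, with no overlap between neighbours. Id2 (chromosome 12, 25093799 to 25097140, minus strand) had a TPM of 199.8 in embryo 1 and 223 in embryo 2, and 96.9% of protein-coding genes had a lower mean. Id4 (chromosome 13, 48261228 to 48266026, plus strand), known for its role in neural progenitors, had 166 in embryo 1 and 169.6 in embryo 2. Id3 had 113 in embryo 1 and 84.5 in embryo 2, and Id1 had 31.3 in embryo 1 and 26.2 in embryo 2. The ratio was 0.810 (0.778 to 0.844) for Id2, and none of the 4 genes was called. Id2 and Id4 were somewhat lower and Id1 and Id3 higher in embryo 1 under all 5 scalings, and the counting interval of Id1 held 1 (0.956 to 1.24). The family had a summed TPM of 509.5 in embryo 1 and 503 in embryo 2, and the BMP ligands summed to 21.3 in embryo 1 and 6.13 in embryo 2.

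The antagonists had a narrow range of low levels. Chrd, which encodes the BMP-binding chordin, had a TPM of 4.59 in embryo 1 and 5.19 in embryo 2, and its ratio was 0.791 (0.672 to 0.931). Nog, which encodes noggin, had 3.43 in embryo 1 and 4.06 in embryo 2. Chrdl1, a chordin-like BMP antagonist, had 4.32 in embryo 1 and 2.10 in embryo 2. Chrd lay above all others, and Nog, Chrdl1, Bambi and Fst overlapped with their neighbours. With its coding transcripts alone, Chrd had 3.96 in embryo 1 and 4.61 in embryo 2, which overlapped with Nog and Chrdl1. Bambi, a decoy receptor without a kinase, had 3.54 in embryo 1 and 2.75 in embryo 2. Fst, which encodes the activin-binding follistatin, had 3.92 in embryo 1 and 2.20 in embryo 2. Grem1, which encodes gremlin, had 1.21 in embryo 1 and 1.45 in embryo 2, below all others in both embryos. None was called, and the ratio of Chrdl1 was 1.85-fold (1.52 to 2.25).

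The transcript tables divide the reads of a gene among its annotated transcripts. Of the 39 members, 14 had 1 transcript, 27 had 1 transcript with at least 90% of the TPM in both embryos, and 38 had the same leading transcript in both. Tgfb2 was an exception of another kind, since its leader by TPM was Tgfb2-205, a retained-intron transcript of 898 nt. It held 38.5% of the TPM in embryo 1 and 47.7% in embryo 2, on 55.5 counts in embryo 1 and 83.3 in embryo 2. By counts the coding Tgfb2-201, of 5116 nt, was higher, with 284 in embryo 1 and 439 in embryo 2. The protein-coding transcripts of Tgfb2 had a TPM of 4.84 in embryo 1 and 4.71 in embryo 2, which would put Tgfb2 below Gdf10 and Gdf11. Tgfb1 was led by the coding Tgfb1-201 in embryo 1, with 58.9%, and by the nonsense-mediated-decay transcript Tgfb1-202 in embryo 2, with 62.2%, on 34 counts in all. For Tgfbr2, 2 coding transcripts of 4710 and 4785 nt divided the TPM alike in both embryos, with 66.1% in embryo 1 and 68.4% in embryo 2 for the shorter. The leader of Tgfbr3 held 90.7% in embryo 1 and 72.9% in embryo 2, and that of Smad2, Smad2-205, held 68.4% in embryo 1 and 72.6% in embryo 2.

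**Figure D4:**
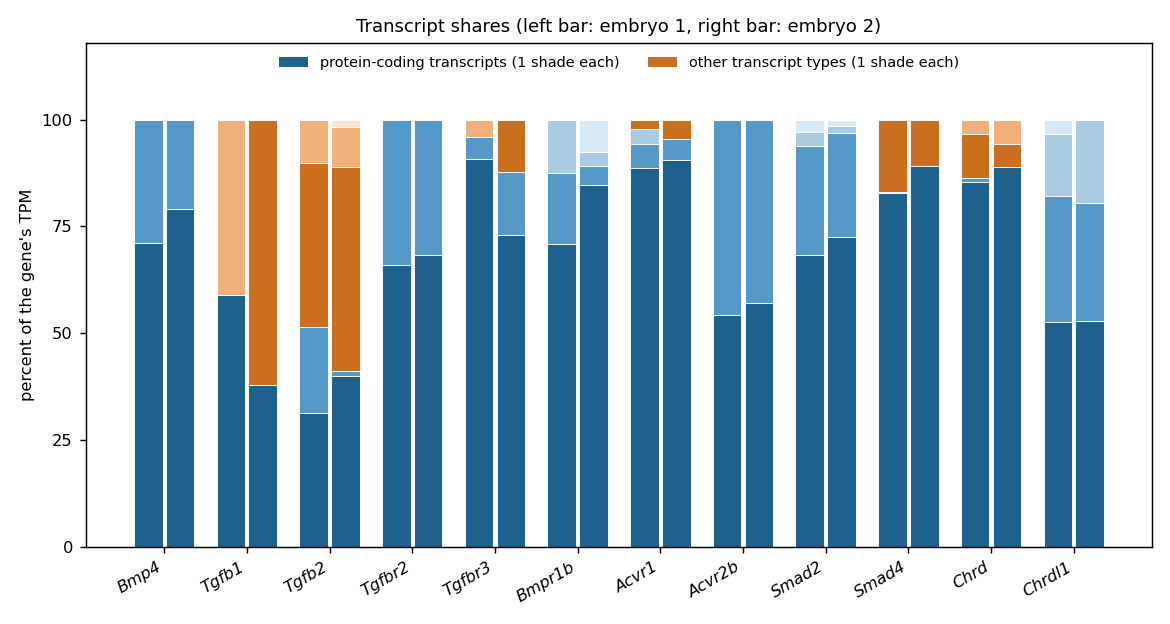
Stacked shares of the TPM of a member held by each of its transcripts, in percent, for the 12 members without a transcript at 90% or more in both embryos, with embryo 1 left of embryo 2, coding transcripts in blue and other types in orange. The largest orange piece of Tgfb2 is its retained-intron leader, with 38.5% in embryo 1 and 47.7% in embryo 2.

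No source used here states the strand protocol, so reads in exons that overlap a gene on the other strand cannot be told apart. Exons of Bmp6 overlap Txndc5, which had 3461 counts in embryo 1 and 2295 in embryo 2, and exons of Acvr2a overlap Orc4, which had 2538 counts in embryo 1 and 2204 in embryo 2. For Id4, the overlapping antisense gene A330033J07Rik had 68.2 counts in embryo 1 and 80.2 in embryo 2, whereas Id4 itself had 4956 in embryo 1 and 5063 in embryo 2.

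Other genes of the pathway were taken from fixed lists of symbols. Beside each list stand the shares given above, 59.5% of protein-coding genes detected and 4.79% of genes with 100 counts called. Of 21 other ligands with a row, 4 were detected and 0 of the 3 with 100 counts were called. The highest was the inhibin subunit Inha, with a TPM of 7.51 in embryo 1 and 13.2 in embryo 2, followed by Gdf9, with 4.65 in embryo 1 and 2.87 in embryo 2. Inhbb, an activin subunit, had 1.55 in embryo 1 and 1.61 in embryo 2. In embryo 2 the level of Inha was above that of every ligand among the members, and the other 3 detected ligands of the list were lower than Inha in both embryos.

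Of 11 other receptors and co-receptors, 6 were detected. Rgmb, a BMP co-receptor, had a TPM of 77.9 in embryo 1 and 53.1 in embryo 2, above every receptor among the members. Rgma, its relative, had 39.6 in embryo 1 and 29.0 in embryo 2, and their receptor Neo1 had 31.9 in embryo 1 and 27.5 in embryo 2. Of 7 with 100 counts, 1 was called, namely the type I receptor Acvr1c (ALK7), with 0.33 in embryo 1 and 0.63 in embryo 2, a ratio of 0.496 (0.336 to 0.726), and this call was lost under each of the other 4 scalings.

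Of 29 other extracellular modulators, 21 were detected. Of the 24 with 100 counts, 5 (20.8%) were called, against 4.79% of all genes. All 5 were higher in embryo 1, the direction of 3.35% of all genes. Fstl1, a follistatin-like glycoprotein, had a TPM of 86.9 in embryo 1 and 42.1 in embryo 2 and passed at 2.01-fold (1.91 to 2.12). Nbl1, a BMP antagonist, had 22.1 in embryo 1 and 10.0 in embryo 2, at 2.19-fold (1.91 to 2.51). Nrros and Lrrc32, which anchor latent TGF-beta at the cell surface, had 2.09-fold and 2.56-fold ratios, and the latent TGF-beta binding protein Ltbp1 had a 2.03-fold ratio, which was 1.47-fold from the deposited TPM. All 5 ratios lay between 2.01-fold and 2.56-fold, close to the threshold. Twsg1, which binds chordin and BMP, had 56.3 in embryo 1 and 38.0 in embryo 2, and Fstl5 had 51.4 in embryo 1 and 45.0 in embryo 2, and neither was called.

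All 22 other intracellular regulators were detected and 0 were called, against 4.79% of all genes, with a median ratio of 1.06-fold. Fkbp1a, which keeps type I receptors silent without ligand, had a TPM of 471 in embryo 1 and 417 in embryo 2. Strap, a partner of Smad7, had 164 in embryo 1 and 137 in embryo 2, and the Smad phosphatase Ppm1a had 49.9 in embryo 1 and 42.3 in embryo 2.

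Of 10 known BMP target genes other than Id, 7 were detected. Of 7 with 100 counts, 1 (14.3%) was called, against 4.79% of all genes. Msx1, a homeobox gene of the dorsal midline, had a TPM of 10.7 in embryo 1 and 4.65 in embryo 2, at 2.08-fold (1.73 to 2.52). The 3 highest by mean were Hey1, with 20.7 in embryo 1 and 17.95 in embryo 2, Gata2, with 13.7 in embryo 1 and 9.47 in embryo 2, and Tfap2a, with 9.08 in embryo 1 and 8.36 in embryo 2. Of 10 known TGF-beta target genes, 5 were detected and 4 of 7 with 100 counts (57.1%) were called, all higher in embryo 1. Of all genes, 4.79% were called in either direction and 3.35% as higher in embryo 1. Col1a1, a collagen of connective tissue, had 52.0 in embryo 1 and 0.77 in embryo 2, and Acta2, smooth muscle actin, had 8.75 in embryo 1 and 0.53 in embryo 2. Fn1, fibronectin, was called at 2.53-fold and Tgfbi at 3.83-fold. Cdkn1a, a cell cycle inhibitor and the highest of the list, had 74.9 in embryo 1 and 97.6 in embryo 2 and was not called. Col1a1 is also 1 of the mesenchyme markers below, and Msx1, the 1 called BMP target, is a roof plate marker, as are Msx2 and Lmx1a of the same list, so these lists are not independent.

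Markers of other cell types differed between the libraries beside these results. The counts of called markers stand against 4.79% of all genes with 100 counts. The 16 mesenchyme and meninges markers summed to a TPM of 491 in embryo 1 and 35.2 in embryo 2, all 16 were higher in embryo 1, 12 of 13 with 100 counts were called, and none was at 0. Choroid plexus markers summed to 111 in embryo 1 and 10.1 in embryo 2. Of these sums, Ttr alone had 96.3 in embryo 1 and 0.37 in embryo 2. Ratios were above 1 for 7 of the 8 choroid plexus markers, and 1 of 4 with 100 counts was called. Folr1 had a ratio of 1.07-fold, Htr2c of 1.17-fold and Prlr of 0.528-fold, and none of them was called. Roof plate markers summed to 33.7 in embryo 1 and 16.6 in embryo 2, with 4 of 6 called (Wnt1, Rspo2, Rspo3 and Msx1) and 3 of the 9 shared with the BMP targets. Microglia and macrophage markers summed to 180.0 in embryo 1 and 63.8 in embryo 2, with 8 of 15 called and Lyve1 at 0 in embryo 2. Endothelial markers summed to 178 in embryo 1 and 109 in embryo 2, with 4 of 9 called. Erythroid markers summed to 9893 in embryo 1 and 6452 in embryo 2, with 1 of 7 called. Pericyte markers summed to 168 in embryo 1 and 75.7 in embryo 2, or 58.9 in embryo 1 and 44.1 in embryo 2 without Vtn, with 2 of 8 called and a median of 1.22-fold. Cycling cell markers summed to 302 in embryo 1 and 143 in embryo 2, with 4 of 8 called. Progenitor markers summed to 2016 in embryo 1 and 2107 in embryo 2, neuron markers to 4812 in embryo 1 and 5179 in embryo 2, and neural crest markers to 8.62 in embryo 1 and 7.95 in embryo 2, with 0 called in each of these lists and in the midbrain list. The part of these cell types in the ratios of Bmp5, Bmp6, Bmp7, Tgfbr2, Tgfbr3 and Smad6 was not tested.

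**Figure D5:**
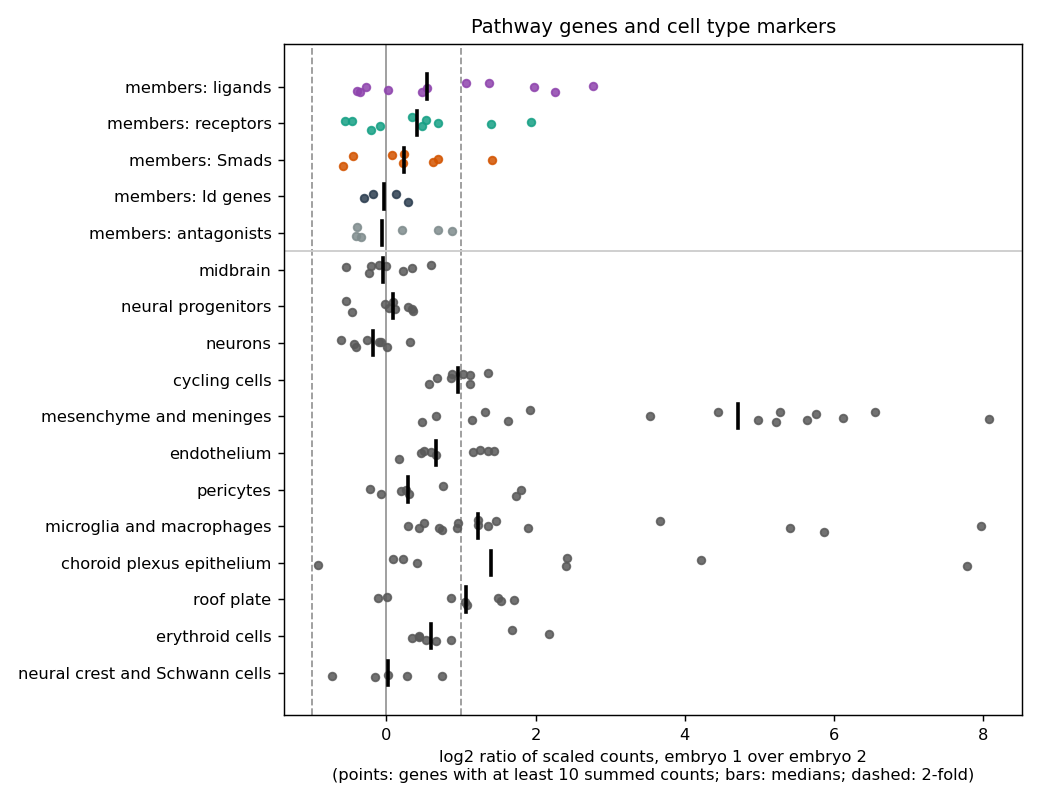
Ratio of embryo 1 over embryo 2 on the log2 scale, for the members by role and the genes of each marker list, with 1 point per gene of at least 10 counts, a bar at each median and dashed lines at 2-fold. The mesenchyme and meninges markers have a median of 26.2-fold, against 0.968-fold for midbrain markers and 1.18-fold for the 39 members.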

How the data were processed

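Total RNA longer than 200 nt was measured in 2 midbrain libraries, each made from 10 ng with ERCC spike-ins, per the labels. The expected counts, TPM and FPKM were computed by the authors on mm10 with GENCODE M4, per the text record that came with the samples. A quantifier was not given in the sources used. Deposited expected counts are estimated reads that need not be whole, since a read that matches several places is divided. Symbols came from GENCODE M21 on the same assembly and matched 42462 of 43346 Ensembl rows (98.0%). Rows with only a numeric identifier (6 counts in embryo 1 and 14 in embryo 2) and spike-ins (3.15% of counts in embryo 1 and 3.32% in embryo 2) stayed out of library sizes.

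Levels are the deposited TPM. Ratios used expected counts, unrounded for the ratio and rounded for its interval, scaled with TMM factors (edgeR 4.0.16, R 4.3.3), a prior count of 0.5 on the log2 scale, and an exact conditional binomial 95% interval (scipy 1.17.1). Intervals cover counting error only, as PCR copies were not marked and reads need not be separate molecules. Calls needed 2-fold and 100 summed counts, and medians of ratios used genes with at least 10. FPKM values, posterior mean TPM, other scalings (DESeq2 1.42.0 size factors among them) and other thresholds entered as alternatives. The ratio script was tested on simulated data. Every member was named, with ratios for called members and the highest of each role, and other lists by their 3 highest and called genes. Ratios or intervals named beyond this were chosen after their values were seen. They were those of Bmp3, Bmp4, Gdf10, Tgfbr1, Smad5, Smad7, Id1 and Chrdl1. Among the markers they were those of Folr1, Htr2c, Prlr, Mrc1, F13a1, Pf4, P2ry12, Cx3cr1 and C1qa. The members and lists were chosen with earlier results of these data known. Gdf1 had no row, and Hjv and Ctgf are further names of listed genes.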

Additional observations from a re-analysis of the deposited data

How the results depend on the processing

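The 6 members called at 2-fold were the same 6 under all 5 scalings (TMM, DESeq2 size factors, total gene counts, spike-in totals and the deposited TPM), and the TPM ratio added Chrdl1. Without the minimum of 100 counts, or with a minimum of 10, the count was 8, which adds Bmp4 and Tgfb1, and at 1.5-fold it was 11. The share of all genes passing these wider rules was not counted. The shares given above hold for 2-fold and 100 counts alone and cannot be set beside 8 or 11. Spike-in totals and TPM moved the median log2 ratio of all tested genes to 0.11 and 0.13, and the median of the members moved with it to 0.35 and 0.41, against 0.24 with TMM. The count of detected members was 33, and 28 to 37 under the alternatives. The median TPM of the members was 4.06 to 6.22 with either embryo left out, 5.62 from posterior mean TPM and 6.92 over detected members alone. With coding transcripts alone, an alternative chosen after seeing the data, the levels of 4 members moved beyond the SD of the embryos, namely Tgfb1, Tgfb2, Bmpr2 and Chrd. Of 11 called genes of the other pathway lists, 9 were called under all 5 scalings, and Acvr1c and Ltbp1 were not. The share of the leading transcript moved for 14 of the 39 members when taken from posterior mean TPM. Counts of 34 to 67 limit Bmp4, Tgfb1 and Smad9. No paired analysis was possible because the series has 1 group.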

Other observations

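The E proteins, the helix-loop-helix factors that Id proteins bind, were all detected. Tcf4 had a TPM of 74.9 in embryo 1 and 70.3 in embryo 2, Tcf12 had 73.4 in embryo 1 and 52.5 in embryo 2, and Tcf3 had 49.4 in embryo 1 and 39.5 in embryo 2. None of the 3 was called, and each lay below Id2, Id3 and Id4 in both embryos.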
